A study of Mus musculus with 9 samples.

Results

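The 10 genes described here encode the channels, pumps and exchangers that set calcium and membrane potential in vascular smooth muscle, and were taken by symbol from a table of 37668 mouse genes. They are Cacna1c and Cacnb2 (voltage-gated calcium channel), Kcnma1 and Kcnmb1 (large-conductance potassium channel), Kcnj8 and Abcc9 (ATP-sensitive potassium channel), Itpr1 and Atp2a2 (calcium store) and Atp2b4 and Slc8a1 (calcium export). Each symbol matched 1 gene, and all 10 stood at 1 FPKM or more in every group. FPKM is a read count scaled to transcript length and to the reads mapped. The table gives 1 FPKM value per group, made by the authors from 3 libraries, so no value has a replicate error, no test was possible and the sequencing depth is unknown.

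The 9 libraries were made from aortas of male mice aged 90 days on a 129T2SvEmsJ:C57Blk/6J background, 3 per group, and all groups carried the AT1ar floxed allele of the angiotensin II type 1a receptor gene Agtr1a. The floxed group had no Cre. The Cdh5Cre group carried Cdh5-Cre, driven by the promoter of an endothelial cadherin, which is also active in precursors of blood cells. The Sm22Cre group carried Sm22-Cre, whose driver is the Tagln promoter of smooth muscle, also active in the heart. Below, values in a row of 3 are always in the order floxed, Cdh5Cre, Sm22Cre. The targeted gene Agtr1a was low in all groups, at 1.75, 1.32 and 1.21 FPKM, and the table does not separate the floxed exon from the rest of the gene. The series title names Marfan syndrome, and the sample labels name no fibrillin-1 allele. The aorta's smooth muscle markers were abundant: Myh11, smooth muscle myosin heavy chain, stood at 1341, 1142 and 1267 FPKM and Smtn (smoothelin) at 650.2, 621.6 and 601.2. Acta2, the smooth muscle actin gene, is listed at 0 in every group with a status that marks too many fragments to estimate, so it was not read as absent. Over the 9 smooth muscle markers measured, the median log2 ratio against floxed was -0.04 in Cdh5Cre and -0.05 in Sm22Cre. In Cdh5Cre 5 were lower and 4 higher, from -0.35 for Synpo2 to 0.66 for Des. In Sm22Cre 6 were lower and 3 higher, from -0.11 to 0.30. In whole tissue, fewer cells of a type and less RNA per cell cannot be told apart.

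Vascular muscle contracts when calcium enters through voltage-gated L-type channels and leaves the sarcoplasmic reticulum through inositol trisphosphate receptors, which open when receptors such as that for angiotensin II activate phospholipase C. Potassium channels oppose contraction: their opening makes the membrane potential more negative and closes the L-type channels. The muscle relaxes as calcium is pumped back into the store by SERCA and out of the cell by plasma membrane pumps and the sodium-calcium exchanger.

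Kcnj8, Kcnmb1 and Slc8a1 span the range of differences seen in Cdh5Cre, being 3.96%, 19.1% and 56.3% lower than in floxed. The sequences just before the start sites of these 3 genes are therefore shown. They are from RefSeq on GRCm38.p6, the 250 bases before each start site, read 5′ to 3′ on the gene's strand, and hold no exon annotated in GENCODE M21. Capitals mark CACCC on either strand (GGGTG when read on the strand shown), and no marked copy overlaps another.
Kcnj8, minus strand of chr6:142571615-142571864: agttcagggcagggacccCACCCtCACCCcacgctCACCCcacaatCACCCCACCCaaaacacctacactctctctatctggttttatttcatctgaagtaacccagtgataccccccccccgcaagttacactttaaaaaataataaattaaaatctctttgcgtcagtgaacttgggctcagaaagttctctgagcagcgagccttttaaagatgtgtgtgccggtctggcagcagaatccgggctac
Kcnmb1, plus strand of chr11:33962763-33963012: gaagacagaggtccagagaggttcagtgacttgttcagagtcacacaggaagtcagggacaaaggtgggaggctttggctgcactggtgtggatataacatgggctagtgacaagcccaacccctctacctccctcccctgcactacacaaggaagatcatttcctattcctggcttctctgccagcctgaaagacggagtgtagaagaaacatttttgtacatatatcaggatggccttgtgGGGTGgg
Slc8a1, minus strand of chr17:81738388-81738637: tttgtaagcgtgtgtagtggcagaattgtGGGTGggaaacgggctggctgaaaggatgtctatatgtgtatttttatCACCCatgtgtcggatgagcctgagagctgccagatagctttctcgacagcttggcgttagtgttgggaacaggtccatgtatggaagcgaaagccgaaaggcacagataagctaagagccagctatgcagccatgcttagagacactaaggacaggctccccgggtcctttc
The Kcnj8 window held 5 copies of CACCC, between 232 and 199 bases before the start, the Slc8a1 window 2 and the Kcnmb1 window 1. CACCC is common: 52.0% of 32851 RefSeq windows of this length held it on either strand. RefSeq gave 11 windows for 8 of the 10 genes, all but Itpr1 and Atp2a2. Of these 11, 8 held CACCC, 4 held GGGCGG (32.7% of all windows), and 0 held the CArG box (1.47%), TATAAA (12.4%) or TGACGTCA (1.55%), each searched on both strands. These letter matches describe the windows and show no binding.

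Levels in the floxed aorta spanned from 9.69 FPKM for Cacnb2 to 259.6 for Atp2a2, which alone made up 40.7% of the summed FPKM of the 10 genes. Abcc9 (85.6 FPKM), Kcnmb1 (72.6), Atp2b4 (68.5) and Itpr1 (61.6) followed, then Kcnj8 (29.0), Slc8a1 (22.1), Kcnma1 (14.9) and Cacna1c (14.9). The median of the 14225 genes analysed, those with 1 FPKM or more in at least 1 group, was 10.1 FPKM in floxed. Atp2a2 was the highest of the 10 and Kcnj8, Slc8a1, Kcnma1, Cacna1c and Cacnb2 held places 6 to 10 in all 3 groups. The 4 genes between them changed places. Abcc9 was second in floxed and Sm22Cre and in place 4 in Cdh5Cre, behind Atp2a2, Kcnmb1 and Itpr1. Whether neighbours in this order differ beyond the spread between mice cannot be judged from group values.

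**Figure D1:**
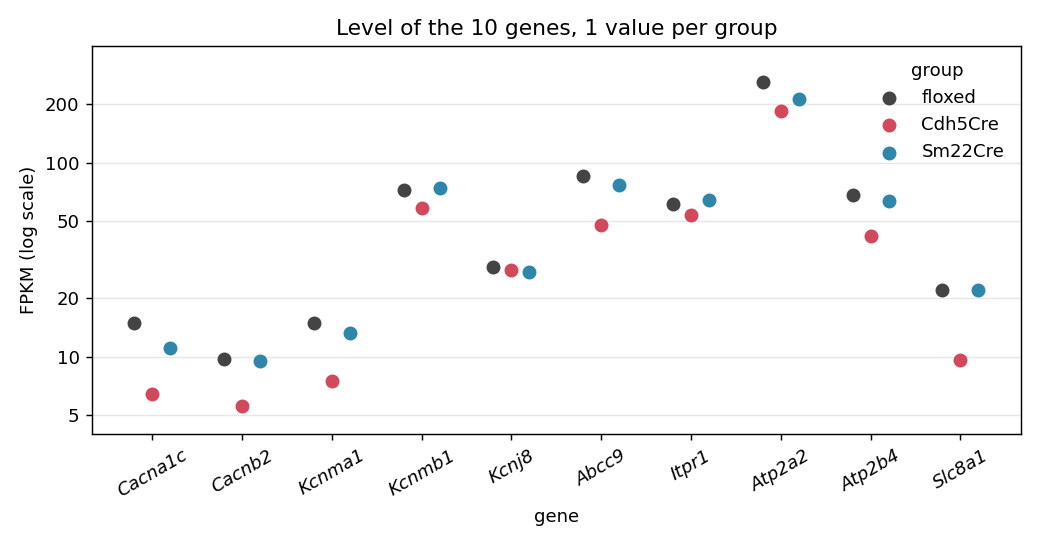
FPKM (log axis) of each of the 10 genes in floxed, Cdh5Cre and Sm22Cre, 1 point per group value with no error available. Cdh5Cre is the lowest of the 3 points for every gene but Kcnj8, whose points lie between 27.5 and 29.0 FPKM.

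In Cdh5Cre, all 10 genes were lower than in floxed, by amounts from 3.96% for Kcnj8 to 56.5% for Cacna1c. The median log2 ratio of the 10, taken on log2(FPKM + 1), was -0.70, against 0.02 for all 14225 genes, of which 48.2% were lower at any size. Because no test was possible, genes were counted by size, with 2-fold on this scale as the rule. By that rule 2 of the 10, Cacna1c and Slc8a1, were lower in Cdh5Cre, against 0.703% of all genes, and at 1.5-fold 6 of the 10 were, against 6.02%. In Sm22Cre against floxed, 0 of the 10 reached 1.5-fold, against 0.921% of all genes lower and 0.619% higher. There 7 of the 10 were lower at any size, against 47.9% of all genes, with a median of -0.09 against 0.01 for all genes. Both comparisons use the same floxed values.

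**Figure D2:**
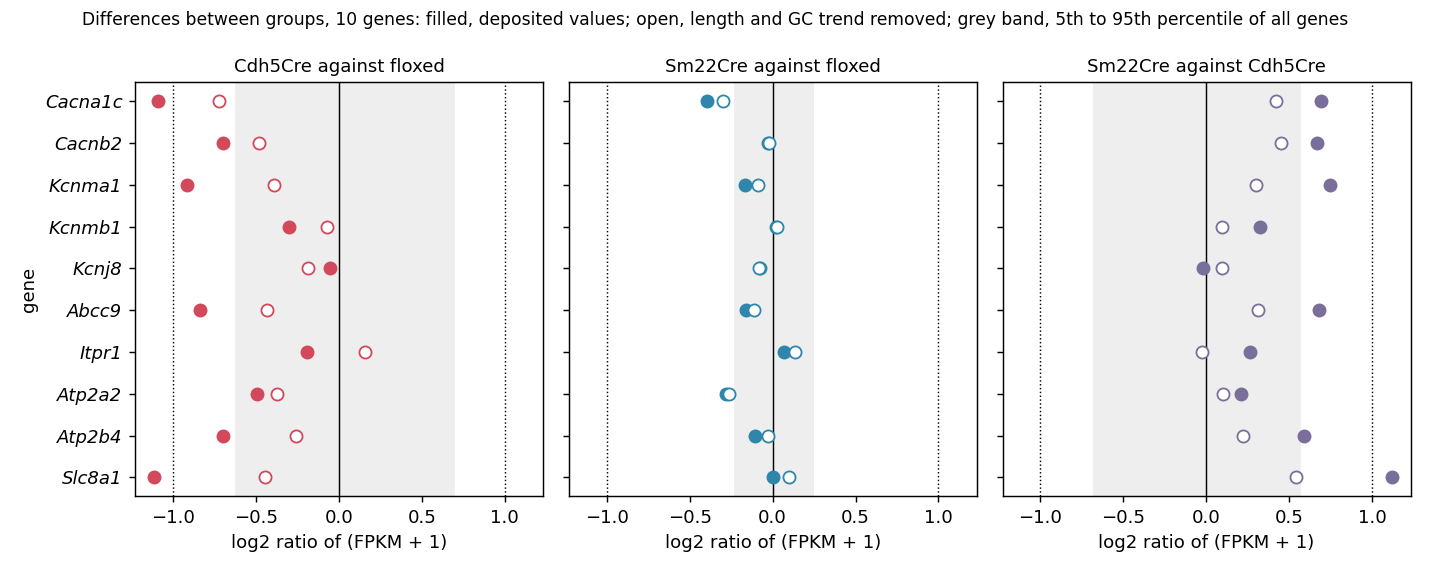
Log2 ratio of (FPKM + 1) of each gene in the 3 pairs of groups, as deposited (filled) and with the trend on transcript length and GC content removed (open). The grey band holds the middle 90% of all genes as deposited and applies to the filled points, and the dotted lines mark 2-fold. In Cdh5Cre against floxed, 6 filled points lie to the left of the band.

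The pore-forming subunit of the L-type calcium channel, Cacna1c (ENSMUSG00000051331, mm9 chromosome 6, 118542314 to 119171632), had values of 14.9, 6.46 and 11.1 FPKM. It was 2.30-fold lower in Cdh5Cre (log2 ratio -1.09) and 1.34-fold lower in Sm22Cre (-0.39), its value there being the lowest log2 ratio of the 10. Coordinates here and below are those of the listed locus, which for Cacna1c, Cacnb2, Kcnmb1, Abcc9 and Slc8a1 also holds other genes. Cacnb2 (ENSMUSG00000057914, chromosome 2, 14525617 to 14909535), a cytoplasmic beta subunit that carries the pore to the membrane, stood at 9.69, 5.60 and 9.49 FPKM. Its Cdh5Cre value was 1.73-fold lower, and the values of floxed and Sm22Cre differed by 2.07%. The level of the pore relative to this beta subunit, as a ratio of FPKM, was 1.53, 1.15 and 1.17. So the ratio of pore to beta subunit was at about the same lower level in both Cre groups, with both transcripts low in Cdh5Cre and the pore transcript alone low in Sm22Cre.

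Among the other subunits of these channels, Cacna2d1, the highest of them in floxed, stood at 28.5, 17.1 and 26.4 FPKM. Cacna1d, a related pore, was at 5.08, 2.69 and 5.05 FPKM, 1.89-fold lower in Cdh5Cre. With the trend on transcript length and GC content removed, the Cdh5Cre log2 ratio went from -0.71 to -0.18 for Cacna2d1. For Cacna1d it went from -0.72 to -0.36. Cacna2d1 and Cacna1d had the status FAIL in that pair, a mark explained below. The alpha2delta gene Cacna2d2 had its lowest value in Sm22Cre (2.64, 1.68 and 0.93 FPKM). Of the T-type pore genes, Cacna1g was higher in Cdh5Cre (7.06, 11.7 and 5.72 FPKM) and Cacna1h was lower in Sm22Cre (log2 ratio -0.82). Of the 9 L-type and auxiliary genes analysed, 7 were lower in Cdh5Cre at any size, against 48.2% of all genes, with a median log2 ratio of -0.44. The 2 higher ones were beta subunits other than Cacnb2, Cacnb1 at 0.25 and Cacnb3 at 0.23, and with the trend on transcript length and GC content removed these were 0.06 and -0.04.

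The large-conductance calcium-activated potassium channel, which lets potassium out when calcium sparks reach it, showed a wider gap in its pore than in its accessory subunit. The pore gene Kcnma1 (ENSMUSG00000063142, chromosome 14, 24117983 to 24622526) had values of 14.9, 7.46 and 13.2 FPKM, a plain ratio of 2.00 in Cdh5Cre and a log2 ratio of -0.91. Kcnmb1 (ENSMUSG00000020155, chromosome 11, 33529339 to 33998554), the smooth muscle beta1 subunit that raises the channel's calcium sensitivity, stood at 72.6, 58.7 and 73.6 FPKM. It was 1.24-fold lower in Cdh5Cre and 1.01-fold higher in Sm22Cre. Kcnmb1 FPKM per Kcnma1 FPKM was 4.86, 7.87 and 5.58.

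The ATP-sensitive channel, which hyperpolarises vascular muscle when cell energy is low, gave the same kind of contrast. Its pore gene Kcnj8 (ENSMUSG00000030247, chromosome 6, 142513459 to 142519876), which encodes Kir6.1, stood at 29.0, 27.8 and 27.5 FPKM, the flattest profile of the 10. Its sulfonylurea receptor gene Abcc9 (ENSMUSG00000030249, chromosome 6, 142536382 to 142650794), which encodes SUR2, stood at 85.6, 47.5 and 76.6 FPKM and was 1.80-fold lower in Cdh5Cre. Their listed loci are neighbours, 16505 bases apart on mm9, and 4 of the 10 genes are on chromosome 6. Abcc9 FPKM per Kcnj8 FPKM was 2.95, 1.71 and 2.79. In this channel the pore was the flat partner, whereas in the calcium-activated channel the accessory subunit was. Kcnj8 and Abcc9 are also expressed by pericytes, and over the 7 pericyte and mural markers measured the median log2 ratio was -0.01 in Cdh5Cre, with 4 lower and 3 higher, and -0.14 in Sm22Cre. In Cdh5Cre they ranged from -0.74 for Rgs5 to 0.89 for Ndufa4l2. Their part in the Kcnj8 and Abcc9 values was not tested.

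The calcium store genes were among the abundant ones. Itpr1 (ENSMUSG00000030102, chromosome 6, 108163112 to 108501103), the main inositol trisphosphate receptor of smooth muscle, had values of 61.6, 53.7 and 64.6 FPKM, a log2 ratio of -0.19 in Cdh5Cre and 0.07 in Sm22Cre. It is the release channel that acts downstream of the angiotensin receptor. Atp2a2 (ENSMUSG00000029467, chromosome 5, 122903531 to 122952183), the SERCA2 pump that refills the store, stood at 259.6, 184.2 and 213.1 FPKM. It was 29.1% lower in Cdh5Cre and 17.9% lower in Sm22Cre, with log2 ratios of -0.49 and -0.28. In Sm22Cre against floxed this ratio lay at percentile 3.07 of all genes, and that of Cacna1c at 1.60. Those 2 were the members outside the middle 90% of genes in that pair, where the range from the 5th to the 95th percentile ran from -0.23 to 0.24.

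Heart muscle also expresses Atp2a2, and heart transcripts were present in these aortas at levels that differed by group. The 14 heart markers had sums of 1034, 1615 and 464.8 FPKM, and none was at 0. All 14 were lower in Sm22Cre, with a median log2 ratio of -1.13, and 13 of 14 were higher in Cdh5Cre, with a median of 0.61. The exception was the ryanodine receptor gene Ryr2, also on the list of release genes, at 6.22, 4.83 and 5.46 FPKM with log2 ratios of -0.31 in Cdh5Cre and -0.16 in Sm22Cre. The other 13 lay between -1.34 and -0.86 in Sm22Cre. Apart from Ryr2, ratios of cell type markers in this report are as deposited, without the length and GC trend removed. Store genes that heart muscle expresses strongly were also lower in Sm22Cre: Pln, the SERCA inhibitor phospholamban, stood at 40.2, 36.5 and 20.3 FPKM, Sln (sarcolipin) at 34.2, 44.5 and 15.5, and Casq2, the cardiac calsequestrin, at 17.4, 18.4 and 7.08. Atp2a2 per Pln was 6.46, 5.04 and 10.5. In Cdh5Cre, Atp2a2 was lower, as was Ryr2 as deposited, while the other 13 heart markers were higher. With the length and GC trend removed, Ryr2 turned to 0.10 in Cdh5Cre and Atp2a2 stayed lower, at -0.37. In Sm22Cre, Atp2a2 and all 14 heart markers were lower, and the part of heart muscle RNA in the lower Atp2a2 value there was not tested. Cacna1c, Cacnb2 and Slc8a1 are expressed by heart muscle as well. Between Sm22Cre and floxed, where all 14 heart markers were lower, the log2 ratios were -0.39 for Cacna1c, -0.03 for Cacnb2 and 0.00 for Slc8a1. The part of heart muscle RNA in the Cacna1c value was not tested.

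**Figure D3:**
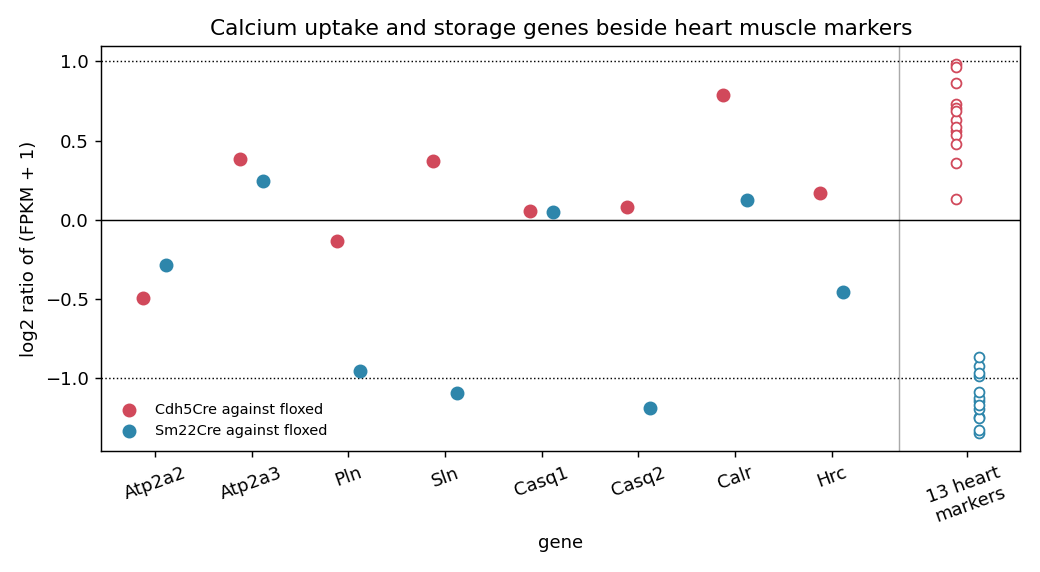
Log2 ratio of (FPKM + 1) against floxed for the calcium uptake and storage genes analysed (filled) and for the 13 heart muscle markers other than Ryr2 (open), Cdh5Cre in red and Sm22Cre in blue. In Sm22Cre, Pln, Sln and Casq2 lie between -0.95 and -1.19, beside the heart markers, and Atp2a2 lies at -0.28.

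The gene with the largest difference in Cdh5Cre on the log2(FPKM + 1) scale was the exchanger Slc8a1 (ENSMUSG00000054640, chromosome 17, 81785359 to 82048947), which trades cytosolic calcium for sodium. Its values were 22.1, 9.64 and 22.1 FPKM, a log2 ratio of -1.12 in Cdh5Cre and 0.00 in Sm22Cre. Atp2b4 (ENSMUSG00000026463, chromosome 1, 135599255 to 135697618), the plasma membrane calcium pump PMCA4, stood at 68.5, 41.9 and 63.5 FPKM and was 1.63-fold lower in Cdh5Cre. All 7 calcium export genes analysed were lower in Cdh5Cre at any size, against 48.2% of all genes, with a median log2 ratio of -0.54, among them the other exchanger genes Slc8a2 (-0.56) and Slc8a3 (-0.43) and the pump gene Atp2b1 (-0.54). With the length and GC trend removed, Atp2b1 was at -0.06 and the pump gene Atp2b2 turned from -0.09 to 0.15. So 6 of the 7 export genes were then lower, against 50.2% of coding genes. In Sm22Cre their median as deposited was -0.06, with 5 lower and 2 higher, against 47.9% of all genes lower.

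Set directly against Cdh5Cre, the Sm22Cre aorta had higher values for 9 of the 10 genes, against 49.1% of all genes, with a median log2 ratio of 0.63 against -0.01 for all genes. By the 2-fold rule 1 of 10, Slc8a1, was higher at 2.29-fold, against 0.401% of all genes, and at 1.5-fold 6 of 10 were, against 4.34%. With the length and GC trend removed, 0 of the 10 reached 2-fold in this pair, against 0.698% of coding genes in either direction. At 1.5-fold 0 of the 10 did either, and the 95th percentile of all coding genes was 0.36, short of 1.5-fold. Slc8a1 (0.54), Cacnb2 (0.45) and Cacna1c (0.42) lay above that percentile, and the other members lay below it. The members' median was then 0.26, against 0.01 for coding genes. Kcnj8 had a ratio of -0.02, which turned positive with the upper quartile scaling (0.02), quantile normalization (0.02), the length and GC trend removed (0.10) or the smooth muscle markers as reference (0.03). This pair shares its Cdh5Cre and Sm22Cre values with the pairs against floxed.

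The differences in Cdh5Cre went with the length of the transcript. Kcnj8, with the shortest longest coding transcript of the 10 (2548 bases), had the smallest log2 difference, and Slc8a1, with the longest (18464 bases), the largest. As a plain ratio, Cacna1c (2.30-fold, 13162 bases) was level with Slc8a1 (2.29-fold). Of the 10 genes, 6 are among the 1232 coding genes with the longest transcripts (6663 bases or more), whose median log2 ratio in Cdh5Cre was -0.37 with quartiles of -0.57 and -0.14. Of these, Cacna1c, Kcnma1, Abcc9, Atp2b4 and Slc8a1 lay below the lower quartile and Itpr1 (9870 bases) above the median. Spearman's rho between ratio and length over the 10 genes was -0.76, and over 12317 coding genes -0.58; genes in 1 pair of group values are not independent. The calcium-activated channel illustrates it, with Kcnma1 at 12094 bases and Kcnmb1 at 4191, and so does the ATP-sensitive channel, with Abcc9 at 7499 bases and Kcnj8 at 2548. Cacnb2 departs from the order, at 3945 bases and a log2 ratio of -0.70. A trend fitted on transcript length and GC content took up 45.6% of the variance of the log2 ratios in Cdh5Cre against floxed, and 3.84% in Sm22Cre against floxed.

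**Figure D4:**
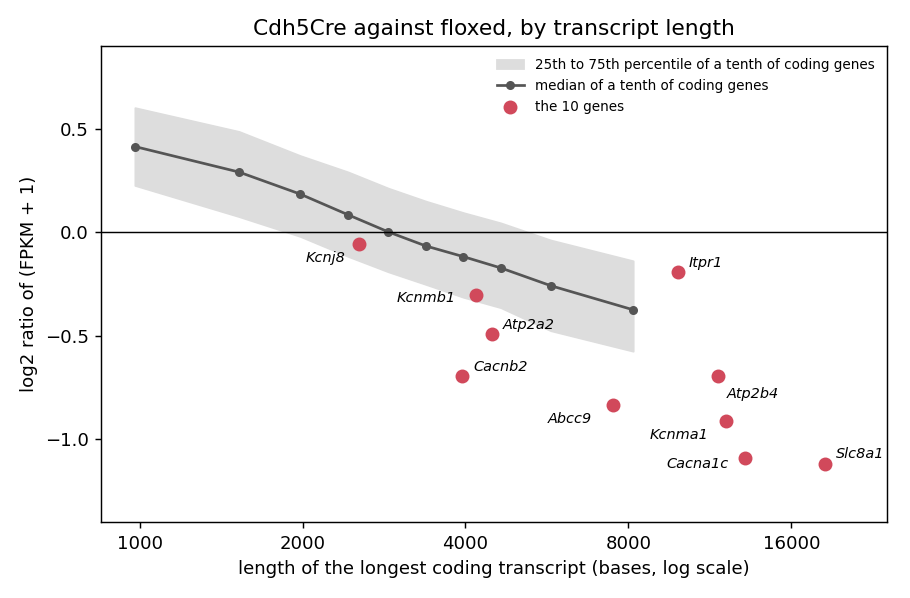
Log2 ratio of (FPKM + 1) in Cdh5Cre against floxed by length of the longest coding transcript (log axis): the 10 genes (red), and the median (line) and quartiles (band) of all coding genes in 10 bins by length, drawn at each bin's median length. Kcnj8 and Kcnmb1 lie within the band, Cacnb2, Atp2a2 and Abcc9 below it, and the 5 longest to the right of its end, with Itpr1 the highest of them.

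With this trend removed, 9 of the 10 genes were still lower in Cdh5Cre, against 50.2% of 12317 coding genes, with a median log2 ratio of -0.38. None of the 10 then reached 2-fold, against 0.122% of coding genes lower, and 1, Cacna1c, reached 1.5-fold, against 1.73%. Against the spread of the corrected ratios, whose 5th percentile was -0.42, 4 of the 10 lay outside, Cacna1c, Cacnb2, Slc8a1 and Abcc9. The corrected ratios were -0.73 for Cacna1c, -0.48 for Cacnb2, -0.44 for Slc8a1, -0.43 for Abcc9, -0.39 for Kcnma1, -0.37 for Atp2a2 and -0.26 for Atp2b4. Kcnj8 (-0.19) and Kcnmb1 (-0.07) were nearest to 0 among the lower ones, and Itpr1 turned to 0.16. The gap between Abcc9 and Kcnj8 narrowed from -0.78 to -0.25 on the log2 scale, and that between Kcnmb1 and Kcnma1 from 0.61 to 0.32. Cacna1c kept percentile 0.763 of the coding genes, against 0.429 of all genes before. In Sm22Cre against floxed the corrected ratios were -0.30 for Cacna1c and -0.26 for Atp2a2, at percentiles 2.09 and 2.83.

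The status given for each estimate also bears on these values. In Cuffdiff tables, which have this layout, FAIL marks a gene whose comparison could not be computed numerically. Cacna1c, Kcnma1, Itpr1 and Slc8a1 had FAIL in every pair and the other 6 had OK, so both genes past 2-fold in Cdh5Cre had FAIL. Among the 6 with OK the median was -0.59 in Cdh5Cre, all 6 were lower, against 48.1% of 10212 such genes, and 0 reached 2-fold, against 0.725% lower. Cacna1c shares its listed locus with Dcp1b and Gm25905, Kcnmb1 with 5 genes that include Kcnip1 and Lcp2, Cacnb2 with 8, and Abcc9 and Slc8a1 with 1 each, so fragments may be divided among them. The other 5 genes had a locus of their own.

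Beyond the 10, a list of 113 further genes of calcium and potassium handling, chosen by role, was examined. A row was matched for all of them but Kcnj11, and 87 were analysed. In Cdh5Cre 55 were lower and 32 higher at any size, against 48.2% of all genes lower, with a median log2 ratio of -0.10 against 0.02. The status was OK for 59 of the 87 in this pair. By the 2-fold rule 1 was lower, against 0.703% of all genes, and 0 were higher, against 1.19%. At 1.5-fold 11 were lower and 6 higher, against 6.02% and 8.33%. The 1 past 2-fold was Cald1, which encodes caldesmon, at 730.1, 352.3 and 670.1 FPKM with status FAIL. In Sm22Cre 66 were lower and 21 higher, against 47.9% of all genes lower, with a median of -0.06 against 0.01. By the 2-fold rule 2, the store genes Sln and Casq2, were lower, against 0.33%.

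Among the voltage-gated potassium channels, Kcnab1, a cytoplasmic beta subunit and the highest in floxed of the 13 analysed, stood at 99.6, 53.3 and 92.6 FPKM, and its log2 ratio of -0.89 was -0.69 with the trend removed, on a transcript of 3245 bases. Kcnd3, a pore of the A-type current, stood at 8.21, 3.85 and 7.44 FPKM. Of these 13, 10 were lower in Cdh5Cre and 10 in Sm22Cre at any size, against 48.2% and 47.9% of all genes, and some were close to 0, such as Kcne4 (-0.02 in Cdh5Cre). Kcnq1 stood at 1.39, 1.66 and 0.83 FPKM. All 4 inward rectifier genes analysed, Kcnj8 and Abcc9 included, were lower at any size in both Cre groups, with Kcnj12 at 1.05, 0.93 and 0.80 FPKM. The tandem-pore genes Kcnk3 (7.47, 6.90 and 6.20 FPKM) and Kcnk6 (3.84, 3.48 and 4.04) were within 1.5-fold of floxed in both Cre groups. Kcnk3 had a log2 ratio of -0.23 in Sm22Cre, at percentile 4.63 of all genes. Among the other calcium-activated potassium channels, Kcnn3 stood at 1.36, 0.85 and 1.05 FPKM.

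Most other roles had members on both sides. In Cdh5Cre, calcium release had 5 lower and 6 higher at any size, and calcium uptake and storage 2 lower and 6 higher. Their median log2 ratios were 0.05 and 0.12. Store-operated, receptor-operated and stretch channels had 9 lower and 4 higher, calcium sensing 6 and 2, and the sodium pump 4 and 2. Mitochondrial uptake had 3 of each, and the 2 chloride channel genes analysed were lower. Of all genes, 48.2% were lower. These counts are of ratios as deposited, and some signs turned with the length and GC trend removed. In Cdh5Cre, Itpr1 then stood at 0.16 and Ryr2 at 0.10, while Casq1 stood at -0.13 and Smdt1 at -0.04. In calcium release, Asph (104.2, 63.8 and 106.3 FPKM) was lower in Cdh5Cre and Fkbp1a (235.6, 297.5 and 237.5), which encodes an immunophilin that binds ryanodine receptors, was higher. Trdn, the junction protein triadin of striated muscle, stood at 2.62, 2.94 and 1.36 FPKM. The chaperone and calcium buffer Calr stood at 254.3, 440.0 and 276.9 FPKM, on the opposite side of floxed from Atp2a2 in Cdh5Cre. Of the stretch and receptor-operated channels, Piezo1 (18.4, 33.9 and 21.3) and Trpv4 (4.27, 6.82 and 5.08), both also expressed by endothelium, were higher in Cdh5Cre, and Pkd1 (81.6, 69.7 and 76.4) was lower. All 12 endothelial markers were higher in Cdh5Cre, with a median log2 ratio of 0.56 and a range from 0.09 to 1.24, summing to 376.1, 589.4 and 424.3 FPKM, and none was at 0. Their part in the Piezo1 and Trpv4 values was not tested. Both genes had the status FAIL in every pair, and the listed locus of Piezo1 holds 159 genes. The sodium pump modulator Fxyd1 stood at 250.3, 389.2 and 243.4 FPKM and its log2 ratio of 0.63 in Cdh5Cre was 0.03 with the trend removed, on a transcript of 620 bases. The pump subunit Atp1b1 stood at 22.4, 21.7 and 19.0 FPKM. The calcium-activated chloride channel Ano1 was at 49.7, 35.9 and 47.0 FPKM and the mitochondrial genes Smdt1, Vdac1 and Mcub at 85.3, 125.6 and 84.1, at 122.1, 116.3 and 113.2, and at 5.80, 7.36 and 5.16. Atp2b2 stood at 1.74, 1.57 and 1.44 FPKM.

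**Figure D5:**
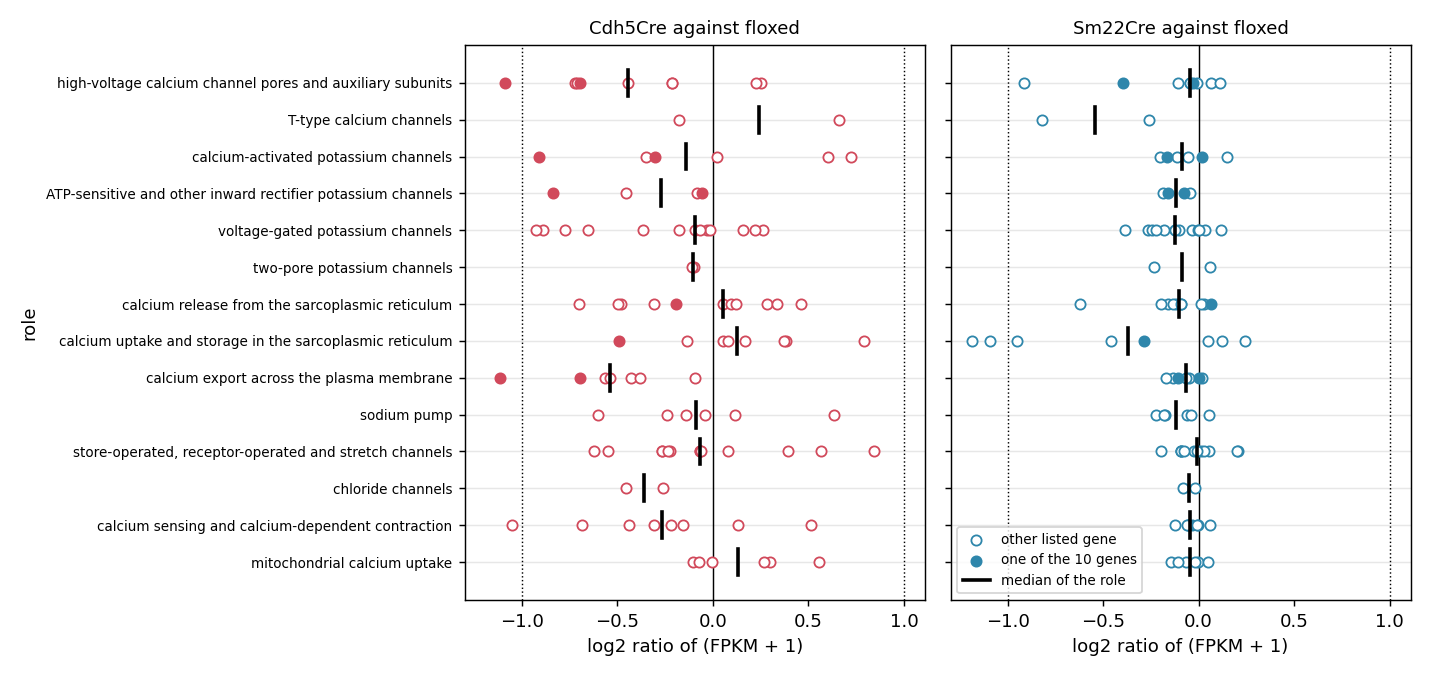
Log2 ratio of (FPKM + 1) against floxed for the 97 listed genes analysed, by role, with the 10 genes filled, the others open and the median of each role as a bar. In Cdh5Cre the calcium export genes lie at or below -0.09, and in Sm22Cre the lowest points are Casq2 and Sln.

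Blood cell transcripts also differed between the groups. All 5 red cell markers measured were higher in both Cre groups, with median log2 ratios of 2.57 in Cdh5Cre and 1.12 in Sm22Cre, and sums of 4020, 25453 and 9029 FPKM. The total FPKM of the table was 495724, 607860 and 500015 in the same order. Since FPKM is relative to all mapped reads, the ratios were also taken relative to the median of the 9 smooth muscle markers, chosen after seeing the data. This adds the same amount to every gene, so it leaves the distance from other genes as it was. All 10 genes were then lower in Cdh5Cre, between -0.02 for Kcnj8 and -1.08 for Slc8a1, with a median of -0.66 against 0.06 for all genes. In Sm22Cre the members' median became -0.04 against 0.06 for all genes.

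Genes whose pair of log2 ratios against floxed was most like that of a member were looked for among 6208 named genes outside the list with status OK and a mean of 5 FPKM or more. For Cacna1c the nearest were n-R5s202 (distance 0.06 on the log2 scale), Irs2 (0.07), at 16.4, 7.30 and 11.6 FPKM, and Cnot6l (0.10). For Kcnmb1 they were Capn7, Gm20696 and Usp20, and for Kcnj8 Sh3glb1, Pomk and Flot2. Within a distance of 0.05 there were 0 genes for Cacna1c, 126 for Kcnmb1 and 118 for Kcnj8. Cacna1c itself had the status FAIL in every pair, so genes with its own status were not searched. Its ratios against floxed lay at percentiles 0.429 and 1.60 of all genes, where few genes lie. With 3 group values this likeness is a description only.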

How the data were processed

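RNA from whole aorta was sequenced in 9 libraries, 3 per group. Cufflinks 1.3.0 and TopHat2 2.0.8 are named, with SAMtools 0.1.7, Bowtie2 2.1.0 and build mm9, per the submitters' processing notes. Their roles, the strand setting and the annotation are not given in the sources used here. The deposited table lists FPKM values and a status for each gene and pair of groups, and the authors had already combined the 3 libraries of each group. The FPKM unit follows from the table's column layout and the tools named. Each member's value was identical in both pairs that list it.

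Log2 ratios here are differences of log2(FPKM + 1), a scale that makes low genes look more alike than they are; folds in the text are plain ratios of FPKM. A gene was analysed if any group reached 1 FPKM, after leaving out 7 with the status HIDATA. A 2-fold rule of size took the place of a test. Length and GC content of the longest protein-coding transcript came from GENCODE M21 (another build, never used for mm9 positions) for 86.6% of the genes analysed, and a polynomial trend on both was subtracted as an alternative. That step was run on simulated data. Their trend had a form that the polynomial contains, and the planted differences were larger than that of any member. The run therefore does not show how the step acts on differences of the members' size. Starts were taken as counted from 0 and 1 was added. Work was done in Python 3.11.15 with pandas 2.3.3 and NumPy 2.4.6.

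The members, the lists and the rule for named genes were chosen with earlier results of these data known. Named are the 10 members and, in each role of the wider list, the gene highest in floxed and the gene with the largest ratio in each pair, with a few others given as members of a described group. The marker lists covered 11 cell types. Medians in Cdh5Cre and Sm22Cre not given in the report were 0.40 and -0.02 for adventitial fibroblast, 2.43 and 1.04 for platelet, 0.20 and 0.09 for neutrophil and macrophage, 0.14 and 0.02 for adipocyte, 0.56 and 0.04 for nerve and 0.37 and -0.28 for skeletal muscle markers.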

Additional observations from a re-analysis of the deposited data

How the results depend on the processing

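The main limit is that 1 value per group gives no spread between mice. No paired analysis was possible because the table holds group values and the groups share no replicate numbers, and libraries could not be left out in turn for the same reason. Depth is unknown, so no value has a counting interval. With the trend on transcript length and GC content removed, Cacna1c (-0.73) and Slc8a1 (-0.44) no longer reached 2-fold in Cdh5Cre against floxed, nor Slc8a1 (0.54) in Sm22Cre against Cdh5Cre, so 0 members did in either pair. The members' medians became -0.38 and 0.26, and Itpr1 changed sign in both (0.16 and -0.0279). With status OK alone, 0 members reached 2-fold in either pair and the medians were -0.59 and 0.45. At 1.5-fold and over all 10 members whatever their status, 6 were lower in Cdh5Cre against floxed, against 6.02% of all genes. In Sm22Cre against Cdh5Cre 6 of the 10 were higher, against 4.34% of all genes. Signs of values near 0 turned for Slc8a1 in Sm22Cre against floxed under upper quartile scaling (-0.00120) and quantile normalization (-0.00707), for Cacnb2 there relative to smooth muscle markers (0.0275), and for Kcnj8 in Sm22Cre against Cdh5Cre under the same scalings (0.0240 and 0.0237), the trend removed (0.10) and the smooth muscle reference (0.0315).

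Of the other listed genes, 1, 2 and 2 passed the 2-fold rule in Cdh5Cre against floxed, Sm22Cre against floxed and Sm22Cre against Cdh5Cre. With a pseudocount of 0.1 or of 0.01 these were 4, 4 and 5, and at 1.5-fold 17, 6 and 20. In Cdh5Cre against floxed there were 2 with quantile normalization, 0 with the trend removed and 0 with status OK. In Sm22Cre against Cdh5Cre there were 4 with the trend removed and 1 with status OK, and their median of 0.02 became -0.0269 with median scaling and -0.00172 with no low-value filter. The share of all genes past the rule, 1.89%, 0.633% and 1.63% in the 3 pairs, was 4.12%, 1.20% and 3.71% with a pseudocount of 0.1, 4.58%, 1.39% and 4.08% with 0.01, 0.633%, 0.300% and 0.698% with the trend removed, 0.714%, 0.239% and 0.616% with no filter, and 14.3%, 1.54% and 11.9% at 1.5-fold. With the filter at 5 FPKM it was 0.372% in Sm22Cre against floxed. The other 324 values recomputed stayed on the same side of the rule, or within 1.5 times for counts and shares and 0.1 for medians.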

Other observations

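Some genes of the wider list with low levels were picked out after their values were seen. The potassium channel gene Kcnn4, which red cells, immune cells and endothelium express, had 2.57, 4.89 and 2.95 FPKM in the order floxed, Cdh5Cre, Sm22Cre. Its log2 ratio of 0.72 in Cdh5Cre was 0.37 with the length and GC trend removed. The accessory gene Kcnmb4, a relative of Kcnmb1 best known from the brain, stood at 0.62, 1.47 and 0.56 FPKM, and its log2 ratio of 0.60 in Cdh5Cre was 0.13 with the length and GC trend removed. The exchanger gene Slc8a2 kept a log2 ratio of -0.61 in Cdh5Cre with the trend removed, against -0.56 before, although its status was FAIL. No difference here has a replicate check.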
